A study of Mus musculus with 4 samples.

Results

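The genes described here are the FGF ligands, the FGF receptors and the genes that FGF signalling switches on to limit or carry its own output, in cardiac mesenchymal progenitors (CMPs) before and after delivery of the reprogramming factors Oct4, Sox2, Klf4 and c-Myc (OSKM). They were chosen by gene name: every Fgf gene with a number, Fgfr1 to Fgfr4 and Fgfrl1, the Sprouty genes Spry1 to Spry4, the Spred genes Spred1 to Spred3, the phosphatase genes Dusp4, Dusp5 and Dusp6, and the ETS factor genes Etv1, Etv4 and Etv5. This gave 40 genes on 63 probes, out of 22221 named genes and 55681 probes on the array, and the rule reads names, not measured values.

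CMPs are Sca-1+ mesenchymal cells cultured from the heart of adult wild-type C57BL/6 mice, per the methods from the atria. The CMP control was untreated and labelled day 0. The OSKM-CMPs had received OSKM by Sendai virus and were collected at days 4, 6 and 8, to ask which genes change as the cells accumulate lipid. Day 0 was set at 1 day after infection. Each of the 4 conditions was read on 1 single-colour Agilent array from 250 ng of RNA, so there is no replicate, no test between conditions was made, and the errors given are 1 SD from the scanner software's error model for the spots, which leaves out the spread between cultures. All 4 labels name the same growth medium, with 10% FBS and 40 ng/ml basic FGF, the protein of the Fgf2 gene. Per the methods the growth medium held less basic FGF than that, and the OSKM-CMPs were moved at day 0 to a reprogramming medium in which basic FGF is not listed. Whether the CMP control was moved as well is not given in the sources used here, so the 4 factors, the virus, the medium with its FGF and the time in culture cannot be told apart in any value below.

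FGF ligands bind receptor tyrosine kinases together with heparan sulfate, and the endocrine ligands need a Klotho protein in its place. The activated receptor phosphorylates the adaptor Frs2 and turns on Ras, Raf, MEK and ERK. ERK activity induces its own brakes, the Sprouty and Spred proteins and the phosphatases Dusp4, Dusp5 and Dusp6, together with the PEA3 group of ETS transcription factors, and for this reason these genes are widely used as readouts of FGF signalling. In mesenchymal cells, FGFs act on growth and on the choice between differentiated fates, adipocytes among them.

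Levels are given as the log2 processed signal minus the 75th percentile of the array, so that a step of 1 is a 2-fold difference. That percentile was a signal of between 388.5 and 410.9, between 56.6% and 59.6% of probes were well above background, and no spot was saturated. Probes spotted more than once on an array give a technical SD of 0.092 for the difference between a pair of arrays. A gene was counted as higher or lower when its level differed by at least 2-fold. Where only 1 of the 2 arrays was well above background, the dim side was set to the higher of its own value and the lowest value well above background on that array, and the fold is then written as at least that size. Some dim values lie above that lowest value, so the size is a convention and not a strict limit. A level belongs to its own probes and is compared between arrays, never between genes.

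All 9 markers of the labelled cell type (Ly6a, which encodes Sca-1, with Thy1, Eng, Cd44, Pdgfra, Pdgfrb, Nt5e, Itgb1 and Vim) were well above background on all 4 arrays, and their summed signal, in units of the 75th percentile, was 841 in the CMP control and from 570 to 663 at days 4 to 8. Of these 9, 3 were higher and 3 lower at day 4, and 2 and 3 at days 6 and 8. Vim and Thy1 carry most of the sum, while Ly6a, by whose protein the paper defines the cells, was 4.10-fold, 4.96-fold and 6.47-fold higher and Nt5e 3.42-fold, 4.46-fold and 4.29-fold higher. Of 10 adipocyte markers, 5 were well above background in the CMP control, without Adipoq, Plin1, Cfd, Lep and Cidec, against 9, 9 and 10 at days 4, 6 and 8, and their summed signal was 8.22, 48.0, 182 and 397 in the same order. Endothelial markers were above background for 6 of 6 genes in the CMP control and for 4 of 6 later, Cdh5 and Emcn being dim, with a sum of 1.91 falling to between 1.12 and 1.23. Epithelial or mesothelial markers went from 3 of 6 to 5 of 6 genes, Epcam staying dim, with sums of 2.01 and then 12.0 to 16.3. Cdh1 and Krt8 were dim in the CMP control and well above background at days 4, 6 and 8. The largest log2 difference in this list was 7.97, 7.32 and 7.86 on those days. Most of the later sums is Msln, whose level went from -2.68 to between 3.32 and 3.77, while Upk3b was 17.9-fold, 19.8-fold and 8.57-fold lower and Krt18 was within 2-fold at days 6 and 8. Leukocyte markers were above background for 4 to 6 of 8 genes with sums of 1.99 to 2.46, and cardiomyocyte markers for 3 to 5 of 6 genes with sums of 4.24 to 12.0, Actc1 being dim on every array. Nearly all of the cardiomyocyte sum is Tnnt2, which was 2.68-fold and 3.03-fold lower at days 4 and 8, while Myl2 was 7.29-fold, 4.25-fold and 3.15-fold higher and Tnni3 at least 3.31-fold, 2.84-fold and 3.28-fold higher. Among 6 pluripotency markers, Pou5f1, Zfp42 and Sox2 were not well above background on any array, and the sum was 0.698 to 0.902. These shifts accompany every change below, fewer cells of a type and less RNA per cell cannot be told apart in bulk RNA, and the part of cell composition in the changes was not tested.

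Of the 40 genes, 30 were well above background in the CMP control and 31, 31 and 32 at days 4, 6 and 8. Fgf6, Fgf13 and Fgf22 count here only through a probe whose accession has no RefSeq match. The 8 genes that were not well above background on any array were Fgf3, Fgf5, Fgf9, Fgf12, Fgf16, Fgf17, Fgf21 and Spry3, and no change is given for them. Against the CMP control, 2 of 31 genes were higher and 10 lower at day 4, where 10.6% of all genes were higher and 8.5% lower. At day 6 the counts were 2 higher and 10 lower of 31, against 11.6% and 10.9% of all genes. At day 8 they were 4 higher and 11 lower of 32, against 12.8% and 10.8% of all genes. With each array scaled to its median the counts at day 8 were 2 higher and 12 lower, and after normexp with quantile normalization 1 higher and 9 lower. The median difference of these genes from the control was -0.33, -0.64 and -0.11 at days 4, 6 and 8, where that of all genes was -0.02, -0.04 and -0.04. The 3 comparisons share the CMP control array, so an unusual value there enters all of them.

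**Figure D1:**
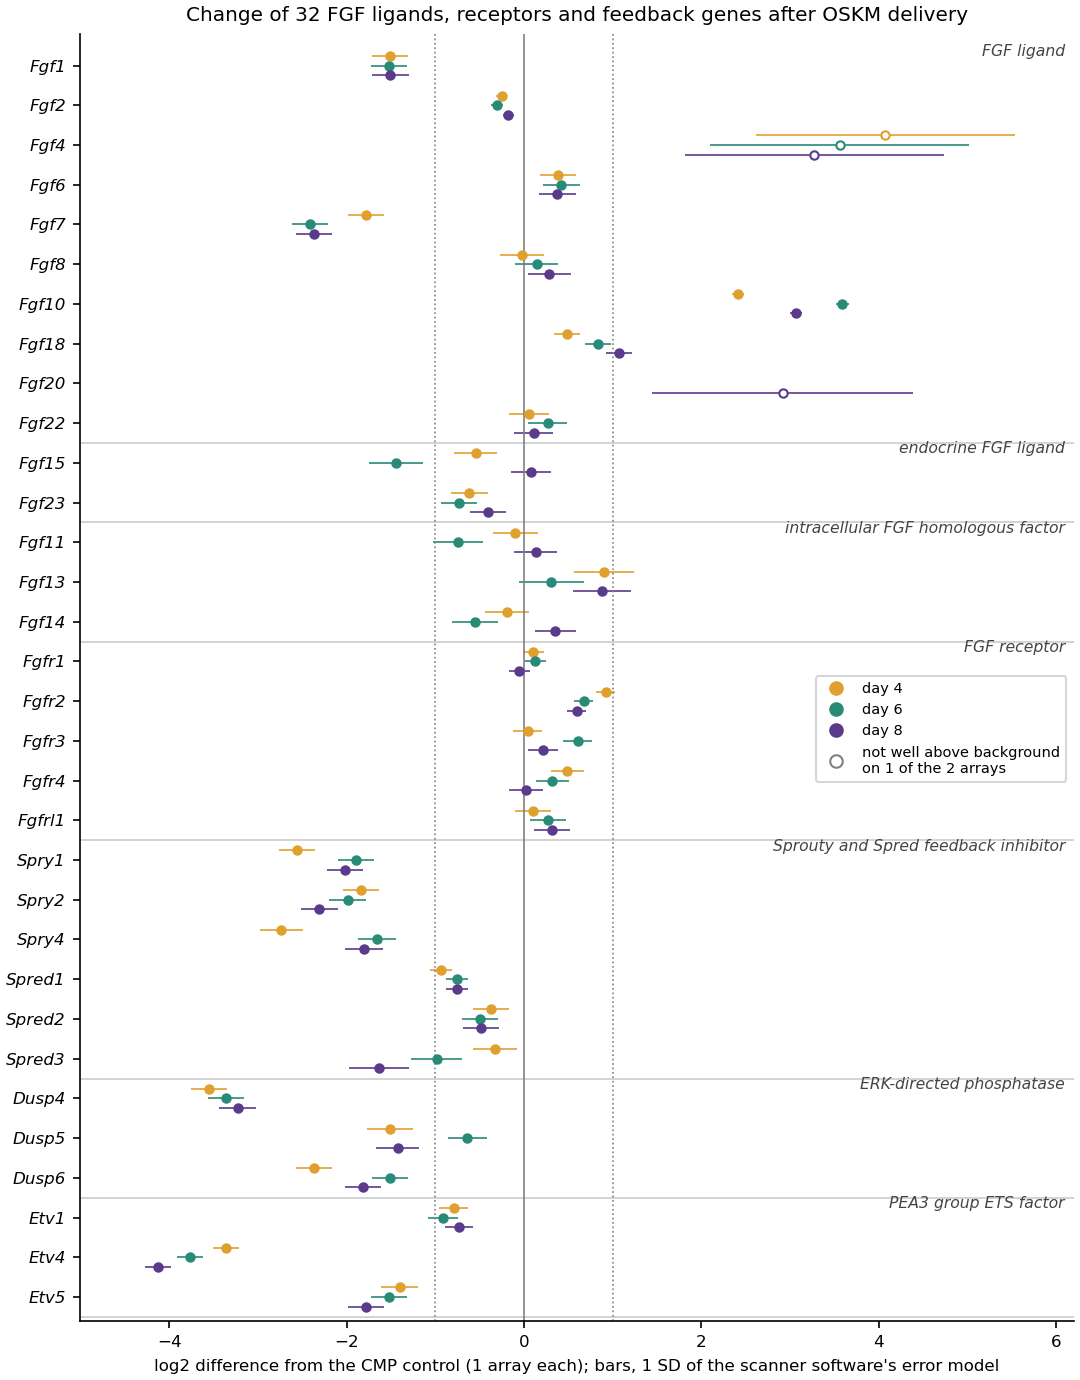
Log2 difference from the CMP control (x axis) at day 4, day 6 and day 8 for the 32 genes well above background on at least 1 array, grouped by role; bars are 1 SD of the error model, dotted lines mark 2-fold, and open points have 1 of the 2 arrays not well above background, so that their position is the measured difference and not a bound. All Sprouty, Spred, Dusp and Etv points lie below 0, from -4.13 to -0.33, while receptor points lie between -0.05 and 0.92.

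The lower genes were mostly the feedback genes. Of the 13 Sprouty, Spred, Dusp and Etv genes, 12 were measured, and 8 of 12 were at least 2-fold lower at day 4, 7 of 12 at day 6 and 9 of 12 at day 8. Of all genes, 8.5%, 10.9% and 10.8% were lower on those days. No feedback gene was higher at any of the 3 days, where 10.6%, 11.6% and 12.8% of all genes were. Their differences ran from -3.55 to -0.33 at day 4, from -3.76 to -0.50 at day 6 and from -4.13 to -0.48 at day 8, with medians of -1.67, -1.51 and -1.79. All 12 had their highest level in the CMP control, and the share of all genes that are highest on that single array was not counted. The lowest level fell on day 4 for 6 genes, on day 6 for 2 and on day 8 for 4.

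Sprouty proteins are inhibitors of the step between receptor tyrosine kinases and ERK. Spry1 had a level of 5.07 in the CMP control, then 2.51, 3.18 and 3.06 at days 4, 6 and 8. It was 5.89-fold, 3.71-fold and 4.04-fold lower than the control, with a log2 error of 0.20 on each day. The values at days 6 and 8 differed by less than that error, and day 4 was the lowest of the 4 arrays.

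Spry2 had levels of 0.39, -1.45, -1.60 and -1.92 on the same 4 arrays in that order. This made it 3.57-fold, 3.96-fold and 4.95-fold lower than the CMP control, with log2 errors of 0.21. Neighbouring days differed by 0.15 and 0.32, each at a combined error of 0.21. Unlike Spry1, its lowest array was day 8. Spry4 had levels of -1.23, -3.96, -2.89 and -3.03, which is 6.66-fold, 3.16-fold and 3.49-fold lower than the control. It was 2.11-fold higher at day 6 than at day 4, and stayed below the control on both days. Its log2 difference at day 4 was -2.74, and -1.54 under normexp with quantile normalization. Spry3, the remaining Sprouty gene, was dim throughout.

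Spred proteins hold back Ras and Raf at the membrane, and they moved less. Spred1, read by 3 probes, had levels of 0.91, -0.03, 0.16 and 0.16, and its differences of -0.94, -0.75 and -0.75, with errors of 0.12 to 0.13, stayed within 2-fold. The 3 probes of Spred1 were each below the control on each day, by 0.61 to 1.13. Spred2 stayed within 2-fold too, with differences of -0.37, -0.50 and -0.48 and an error of 0.20. Spred3 had levels of -3.15, -3.48, -4.13 and -4.78 and differed from the control by -0.33, -0.98 and -1.63, the last with an error of 0.34 and beyond 2-fold. It is near the lowest values well above background, which lay between -5.57 and -5.18 across the arrays. Some dim values lay higher than these, such as -4.86 for a probe of Fgf13 at day 6. The difference of Spred3 at day 8 was -0.53 after normexp background correction and quantile normalization.

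The Dusp4, Dusp5 and Dusp6 proteins remove the activating phosphates from ERK, Dusp6 in the cytoplasm and the other pair in the nucleus. Dusp4 had a level of 3.87 in the CMP control and of 0.33, 0.51 and 0.65 at days 4, 6 and 8. It was 11.7-fold, 10.3-fold and 9.38-fold lower, with a log2 error of 0.20, and the 3 later arrays lay within 0.32 of each other. Dusp6 had levels of 4.62, 2.26, 3.11 and 2.81. It was 5.14-fold, 2.85-fold and 3.51-fold lower than the control with the same error, and was lowest at day 4, as Spry1 and Spry4 were.

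Dusp5 had levels of -2.35, -3.86, -2.99 and -3.77. It was 2.84-fold lower at day 4 and 2.69-fold lower at day 8, with log2 errors of 0.26 and 0.25, and differed by -0.64 at day 6. Both of its 2-fold differences became smaller than 2-fold, at -0.72, under normexp background correction with quantile normalization.

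The PEA3 group factors Etv1, Etv4 and Etv5 are transcribed in response to FGF in many tissues and carry part of its output to target genes. Among genes above background on both arrays compared, the largest change of the 40 belonged to Etv4 at day 8. Its levels were 3.16 in the CMP control, then -0.20, -0.60 and -0.97 at days 4, 6 and 8. It was 10.3-fold, 13.6-fold and 17.5-fold lower, with a log2 error of 0.15. Both of its probes showed this, with differences at day 8 of -4.20 and -4.06. Neighbouring days differed by 0.40 and 0.37, against errors of 0.15.

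Etv5 had levels of 5.70, 4.30, 4.19 and 3.92 and was 2.64-fold, 2.87-fold and 3.44-fold lower with a log2 error of 0.20. Etv1 was below the control by 0.79, 0.92 and 0.73 with errors of 0.16 to 0.17, within 2-fold. Its 2 probes gave -0.92 and -0.91 at day 6.

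**Figure D2:**
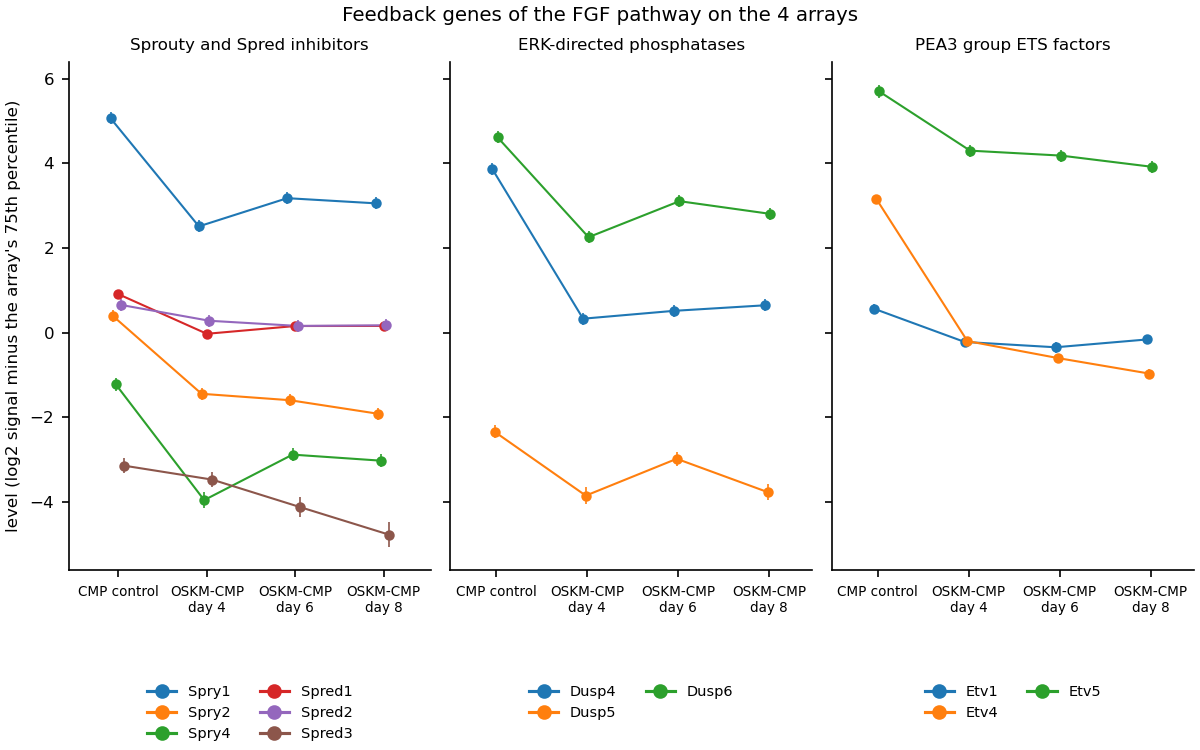
Level of the 12 measured feedback genes (y axis, log2 signal minus the array's 75th percentile) on the 4 arrays (x axis), with 1 point per array and bars of 1 SD from the error model; heights of different genes are not comparable. Every gene is highest in the CMP control, with Spry1, Spry4, Dusp5 and Dusp6 at 5.07, -1.23, -2.35 and 4.62 there and lowest at day 4, and Etv4 going from 3.16 to -0.97 by day 8.

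To show what stands before the start sites of these FGF genes, RefSeq promoter windows (250 bases before the start and 50 after it) on GRCm38.p6 were searched. They were at hand for 29 of the 40 genes, as 38 windows. Those not matched were Fgf1, Fgf8, Fgf15, Fgf16, Fgf17, Fgf20, Fgfr1, Spry3, Spry4, Dusp4 and Etv4. The 4 motifs were an ETS core, an AP-1 site, a GC box and the repeat unit of nuclear receptor sites, each on both strands, and matches of different motifs could overlap. The upstream 250 bases are printed 5′ to 3′ on the strand of the gene for Spry1, Dusp6 and Etv5, which fell, and for Fgf10, which rose, with any match of the 4 motifs in capitals.

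Spry1, chr3:37639697-37639946, plus strand: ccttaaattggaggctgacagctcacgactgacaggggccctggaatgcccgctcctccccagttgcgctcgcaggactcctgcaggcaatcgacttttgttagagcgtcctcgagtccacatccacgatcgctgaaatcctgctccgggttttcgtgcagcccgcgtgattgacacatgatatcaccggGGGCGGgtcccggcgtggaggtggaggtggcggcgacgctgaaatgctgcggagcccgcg

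Dusp6, chr10:99262981-99263230, plus strand: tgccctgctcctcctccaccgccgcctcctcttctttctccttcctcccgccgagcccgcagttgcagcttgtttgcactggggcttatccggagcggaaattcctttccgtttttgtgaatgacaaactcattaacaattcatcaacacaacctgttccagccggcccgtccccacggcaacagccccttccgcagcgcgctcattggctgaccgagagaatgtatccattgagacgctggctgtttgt

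Etv5, chr16:22439571-22439820, minus strand: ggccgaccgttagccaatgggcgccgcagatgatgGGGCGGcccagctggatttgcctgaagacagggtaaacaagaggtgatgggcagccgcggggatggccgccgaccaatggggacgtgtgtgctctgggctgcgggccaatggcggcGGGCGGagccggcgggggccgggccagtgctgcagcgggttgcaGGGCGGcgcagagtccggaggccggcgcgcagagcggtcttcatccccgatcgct

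Fgf10, chr13:118714449-118714698, plus strand: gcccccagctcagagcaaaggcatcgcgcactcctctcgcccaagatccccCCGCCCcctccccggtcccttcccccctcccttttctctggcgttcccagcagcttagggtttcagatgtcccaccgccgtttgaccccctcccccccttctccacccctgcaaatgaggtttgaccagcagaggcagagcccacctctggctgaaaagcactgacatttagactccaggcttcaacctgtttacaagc

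A GC box, spelled GGGCGG and bound by Sp and Krüppel-like factors, was found in 6 of the 11 windows of feedback genes and in 35.7% of all 32851 windows in the table. The ETS core, spelled CCGGAA and shared by the sites of most ETS factors, was found in 1 of the 11, that of Spry2, where it starts at base 33 after the start, and in 14.9% of all windows. An AP-1 site, spelled TGACTCA and bound by Fos and Jun proteins, was in 0 of the 11 and in 5.2% of all windows. The nuclear receptor unit, spelled AGGTCA, was in 1 of the 11, again Spry2, and in 16.3% of all windows. Spry1 and Fgf10 each hold 1 GC box upstream, the Etv5 window printed holds 3, and the Dusp6 window holds none of the 4 motifs. Etv5 has another window, not printed, that also holds none of the 4. The 11 include windows of Etv1, Spred1 and Spred2, which stayed within 2-fold, and none of Spry4, Dusp4 or Etv4. Among all 38 windows, these 11 included, 24 held a GC box, 5 the ETS core, 1 the AP-1 site and 4 the nuclear receptor unit. With 11 windows these counts are a description of the letters.

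The secreted ligands moved in both directions. Of the 15 paracrine ligand genes 10 were measured, and 2 were higher and 2 lower of 9 at day 4, 2 and 2 of 9 at day 6, and 4 and 2 of 10 at day 8, where all genes had 10.6%, 11.6% and 12.8% higher and 8.5%, 10.9% and 10.8% lower. Of the 4 higher at day 8, Fgf4, Fgf18 and Fgf20 were under 2-fold after normexp with quantile normalization. Fgf7 (keratinocyte growth factor), which mesenchymal cells release to act on epithelia, had levels of 2.70 in the CMP control, then 0.92, 0.29 and 0.34 at days 4, 6 and 8. It was 3.44-fold, 5.31-fold and 5.15-fold lower with a log2 error of 0.20, and days 6 and 8 differed by 0.04.

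Fgf1 (acidic FGF), which can bind every FGF receptor, had a level of 0.08 in the control and of -1.43, -1.44 and -1.43 at days 4, 6 and 8. It was 2.84-fold, 2.87-fold and 2.84-fold lower with a log2 error of 0.21, so that the 3 OSKM-CMP arrays did not differ beyond the error. Only 1 of its 2 probes was well above background. Fgf2, the gene of the basic FGF added to the growth medium, had levels of -0.51, -0.76, -0.81 and -0.68. Its differences of -0.25, -0.30 and -0.17, with an error of 0.07, were within 2-fold.

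Fgf10, a mesenchymal ligand of the epithelial form of Fgfr2 that is also made by adipocyte precursors, had the largest rise of the ligands above background on all 4 arrays. Its probe was spotted 9 or 10 times on each array, and the spots averaged -2.61 in the CMP control, then -0.19, 0.99 and 0.46 at days 4, 6 and 8. Their SD was between 0.064 and 0.171, and the ranges of the spots did not overlap between any of the 4 arrays: the highest spot of the control was -2.31 and the lowest at day 4 was -0.32. Fgf10 was 5.33-fold, 12.1-fold and 8.40-fold higher than the control, with a log2 error of 0.07. These log2 differences of 2.41, 3.59 and 3.07 became 1.54, 2.60 and 2.12 under normexp with quantile normalization. It peaked at day 6, 2.26-fold above day 4, and was 1.44-fold lower again at day 8. Repeated spots are technical replicates of 1 RNA sample.

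Fgf4, a ligand of early embryonic cells, was not well above background in the CMP control, at -7.14 with an error of 1.45, and read -3.06, -3.58 and -3.86 at days 4, 6 and 8. It was at least 4.85-fold, 3.40-fold and 2.79-fold higher. Fgf20 was above background at day 8 only, at -4.32, and dim on the other 3 arrays, at -7.24 to -7.19. Its bound at day 8 was at least 2.03-fold. Both genes stayed under 2-fold after normexp background correction with quantile normalization, at log2 differences of 0.67, 0.50 and 0.36 for Fgf4 and 0.26 for Fgf20. The bound of Fgf20 also fell under 2-fold with quantile normalization alone and with arrays scaled to their median.

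Fgf18 had levels of -0.54, -0.05, 0.30 and 0.54 and was 1.40-fold, 1.78-fold and 2.11-fold higher, with a log2 error of 0.14 or 0.15. Its 2 probes differed from the control by 1.16 and 1.00 at day 8, and its call was lost under 3 of the 5 other ways of computing the values. Fgf6, Fgf8 and Fgf22 stayed within 2-fold, with differences of 0.38 to 0.42 for Fgf6, -0.02 to 0.29 for Fgf8 and 0.06 to 0.27 for Fgf22. For Fgf6 and Fgf22 the probe read has no RefSeq match and the matched probe was dim on all arrays, so their expression is uncertain.

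Among the endocrine ligands, which act at a distance through Klotho proteins, Fgf15 had levels of -2.99, -3.53, -4.43 and -2.91. It was 2.72-fold lower than the control at day 6 with a log2 error of 0.31, and was within 2-fold at days 4 and 8. Its rise from day 6 to day 8 was 2.87-fold. The fall at day 6 was -0.51 instead of -1.44 under normexp with quantile normalization. Fgf23, known as a bone hormone, differed by -0.61, -0.74 and -0.41 on its brighter probe, within 2-fold, while its other probe was dim on all arrays. Fgf21 was dim throughout.

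The FGF homologous factors stay inside the cell and bind sodium channels rather than receptors. Fgf11, Fgf13 and Fgf14 were measured and none changed by 2-fold, with differences of -0.74 to 0.13 for Fgf11, 0.31 to 0.90 for Fgf13 and -0.56 to 0.36 for Fgf14. The Fgf13 probe read has no RefSeq match, and the matched probe was dim on all arrays.

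All 5 receptor genes were well above background on every array and none changed by 2-fold on any day as the mean of its probes. Fgfr1, the main receptor of mesenchymal cells, had levels of 3.12 in the CMP control, then 3.23, 3.25 and 3.07 at days 4, 6 and 8. Its differences were 0.11, 0.13 and -0.05 with an error of 0.12. The 3 probes of Fgfr1 did not move together: at day 8 they differed from the control by 0.45, -0.40 and -0.20, each within 2-fold. The largest receptor difference was that of Fgfr2 at day 4, at 0.92 with an error of 0.11, followed by 0.68 and 0.60 at days 6 and 8. These are means of 2 probes, which at day 4 read 1.16, beyond 2-fold, and 0.69. Fgfr3 differed by 0.04, 0.61 and 0.21, Fgfr4 by 0.49, 0.32 and 0.02, and Fgfrl1, a receptor without a kinase domain, by 0.10, 0.28 and 0.32. The 2 probes of Fgfr4 took opposite signs, at 1.10 and -0.12 on day 4. The feedback genes were thus lower on arrays where the receptor mRNAs were within 2-fold of the control, and protein and phosphorylation were not measured here.

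**Figure D3:**
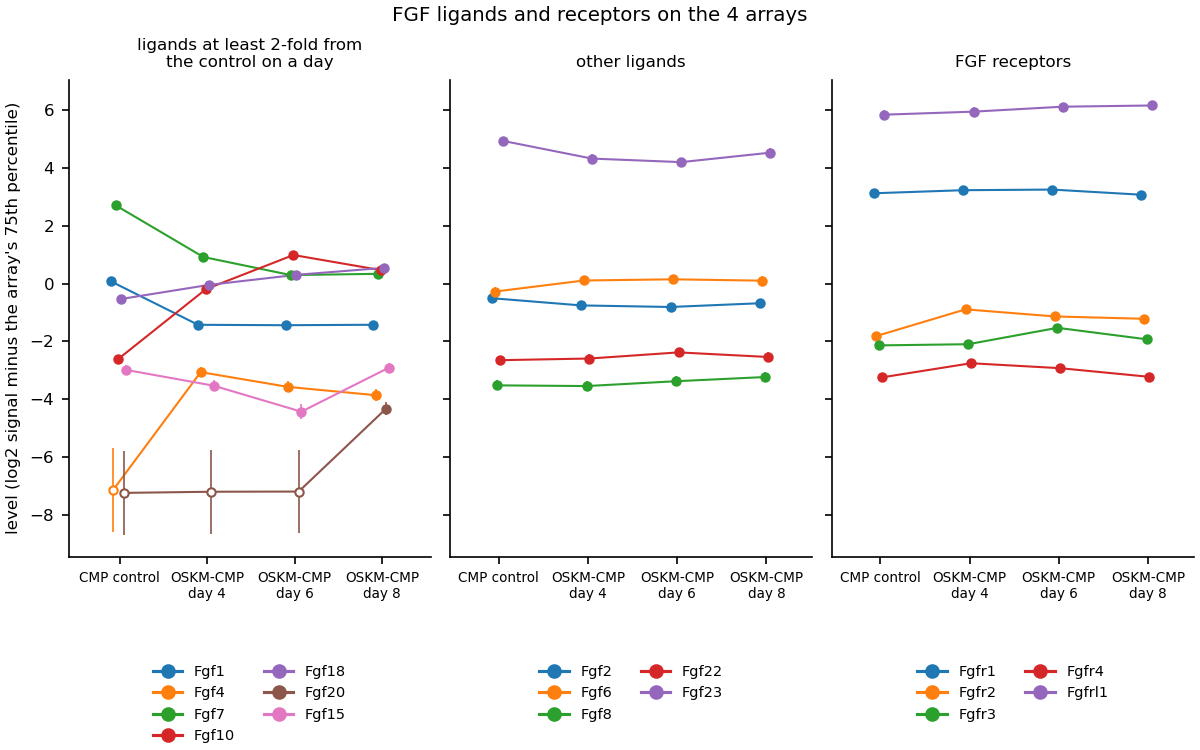
Level of the FGF ligands and receptors (y axis, log2 signal minus the array's 75th percentile) on the 4 arrays (x axis), with bars of 1 SD from the error model and open points where a gene was not well above background; heights of different genes are not comparable. Fgf10 goes from -2.61 to 0.99 at day 6 and Fgf7 from 2.70 to 0.29, while Fgfr1 stays between 3.07 and 3.25.

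Between the OSKM-CMP arrays few of these genes moved. From day 4 to day 6, Fgf10 and Spry4 rose and none fell, 2 of 31 against 2.08% of all genes higher and 1.94% lower. From day 6 to day 8, Fgf15 and Fgf20 rose and none fell, 2 of 32 against 1.68% higher and 0.491% lower. From day 4 to day 8, Spred3 was the 1 gene of 32 that fell, by 2.46-fold, and none rose, against 3.78% higher and 3.34% lower. Over these days the adipocyte sum went from 48.0 to 397.

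**Figure D4:**
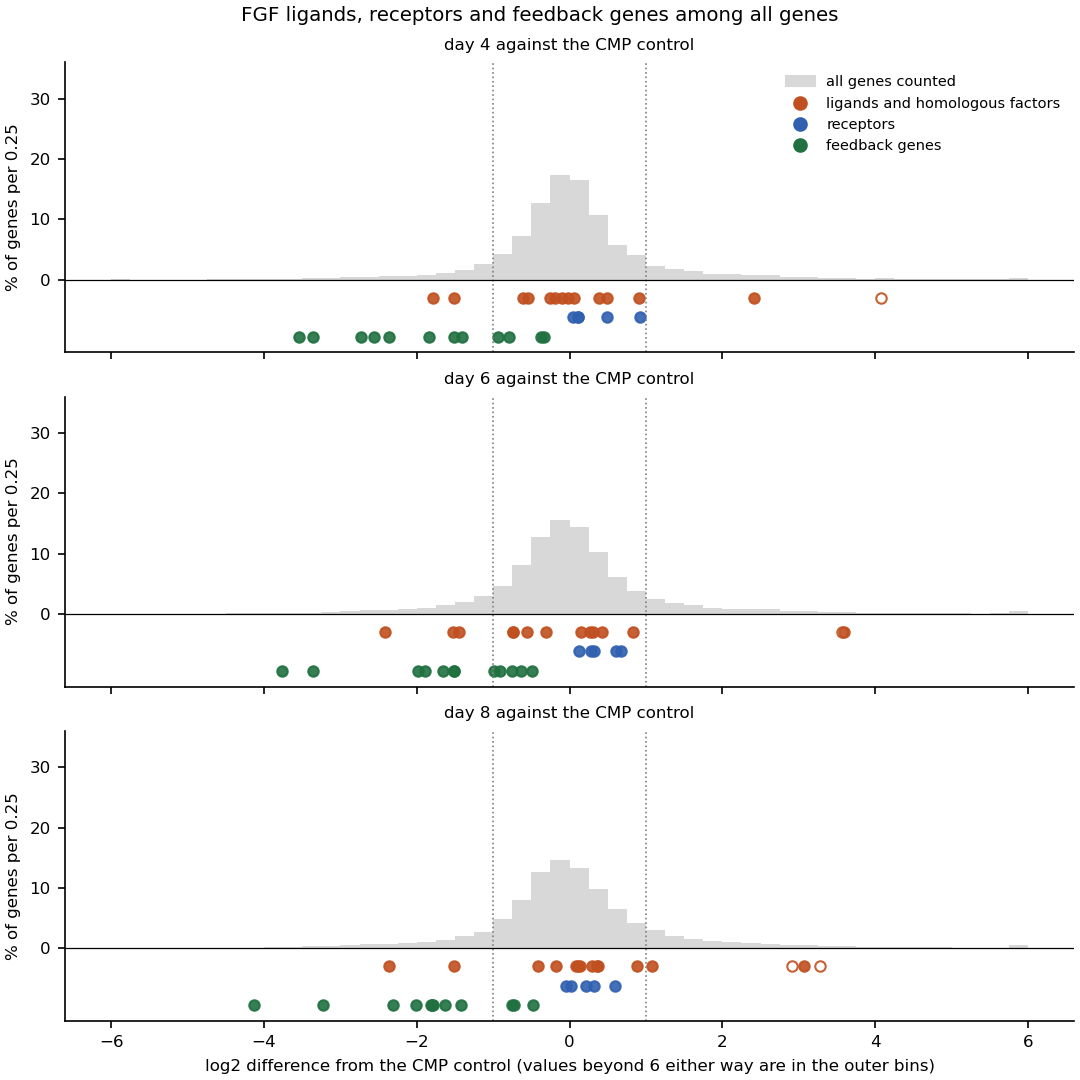
Share of all genes in bins of 0.25 of the log2 difference from the CMP control (grey bars, y axis in percent) at days 4, 6 and 8, with the ligands and homologous factors, the receptors and the feedback genes as points below the axis; dotted lines mark 2-fold and open points have 1 array not well above background. The feedback genes lie to the left of 0 at each day, with medians of -1.67, -1.51 and -1.79, where all genes have medians of -0.02, -0.04 and -0.04.

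The wider pathway was read from a list of 53 further genes, of which 52 were measured. At day 4, 8 of 52 were higher and 6 lower, at day 6, 7 and 7 of 51, and at day 8, 7 and 6 of 50, against the shares of all genes given above. With arrays scaled to their median the split was 6 higher and 11 lower, 7 and 12, and 7 and 11, and after normexp with quantile normalization 4 and 3, 5 and 3, and 5 and 3. Their median differences were -0.20, -0.19 and -0.12. At the cell surface, 4 of the 5 measured co-receptors and receptor partners were higher at day 8, where 12.8% of all genes were. Klb, the co-receptor β-Klotho through which Fgf15 and Fgf21 act on fat and liver, had levels of -3.75 in the CMP control, then -3.48, -1.13 and -0.25 at days 4, 6 and 8. It was 6.12-fold higher at day 6 and 11.3-fold higher at day 8, with a log2 error of 0.24 at day 8, and was within 2-fold at day 4. Its later arrays thus rose alongside the adipocyte sum, and a link between them was not tested. Kl, the other Klotho gene, was dim on all 4 arrays.

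The FLRT proteins are membrane proteins that bind FGF receptors. Flrt1 was 6.83-fold, 8.22-fold and 8.53-fold higher with log2 errors of 0.50. Its control level of -5.27 was close to the lowest values well above background. That level is a mean of 3 probes, and at least 1 probe above background sufficed for a gene to count as above it. Flrt3 was 6.53-fold, 6.19-fold and 5.96-fold higher, and Flrt2 was 2.39-fold and 3.71-fold higher at days 6 and 8. Il17rd, which encodes the FGF antagonist Sef, differed by 0.13, -0.18 and -0.03.

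Heparan sulfate is the cofactor of FGF binding, and its genes went both ways. Of 10 proteoglycan genes 9 were counted at day 8, with 1 higher and 3 lower, against 12.8% and 10.8% of all genes. Gpc1 was 7.58-fold, 5.47-fold and 4.71-fold higher, while Sdc3 was 2.54-fold and 3.16-fold lower at days 6 and 8 and Gpc4 2.26-fold, 2.26-fold and 2.20-fold lower. Gpc3, well above background in the CMP control only, was at least 2.95-fold, 3.88-fold and 3.23-fold lower. Of 9 genes that build or edit heparan sulfate, 2 were higher and 2 lower at day 8, against the same shares. With so few genes these counts are a description. Sulf1, a sulfatase that strips sulfate groups from the chains, was 8.54-fold, 11.8-fold and 8.87-fold lower, and Hs6st2, which adds them, was 2.39-fold, 3.21-fold and 3.21-fold lower. Sulf2, the other sulfatase, was 2.77-fold, 3.25-fold and 3.13-fold higher, and Hs6st1, of the same kind as Hs6st2, was 3.14-fold, 3.21-fold and 2.66-fold higher. Hs6st1 rose from a control level of -4.23, toward the lowest values well above background, with log2 errors of 0.50 to 0.51.

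Inside the cell the pathway changed little. None of 10 receptor adaptors and effectors reached 2-fold on any day, and Frs2 differed by 0.49, 0.56 and 0.66 with an error of 0.20. Of 12 genes of Ras, Raf, MEK, ERK and the RSK kinases, Map2k1 (MEK1) was the only one to reach 2-fold at day 8, at 2.17-fold lower. Of 4 Ras inhibitor genes none did at day 8, where 12.8% of all genes were higher and 10.8% lower.

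A second list held 21 other feedback and target genes of ERK, which many receptors besides those of FGF can drive. At days 4, 6 and 8, 10, 9 and 10 of 21 were lower and 3 on each day were higher, with median differences of -0.93, -0.29 and -0.68. The higher genes were 14.3% of the list on each day against 10.6%, 11.6% and 12.8% of all genes, and the lower ones 47.6%, 42.9% and 47.6% against 8.5%, 10.9% and 10.8%. Fos, an immediate early gene, was 27.8-fold, 6.11-fold and 14.2-fold lower, and Dusp1, a phosphatase of several MAP kinases, 11.4-fold, 4.38-fold and 8.24-fold lower. Myc was 6.28-fold, 7.49-fold and 8.44-fold lower, and whether its probes read the viral c-Myc was not tested. Plaur, the urokinase receptor, was 4.28-fold lower at day 8, and Hmga2, a chromatin protein of growing cells, 4.07-fold lower. Epha4 and Ets2 went the other way, at 5.39-fold and 2.70-fold higher at day 8, as did the ERK phosphatase gene Dusp9, which was dim in the control and at least 2.28-fold higher at day 8. Among targets of ERK, Phlda1 stayed within 2-fold with differences of 0.21, 0.58 and 0.10.

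**Figure D5:**
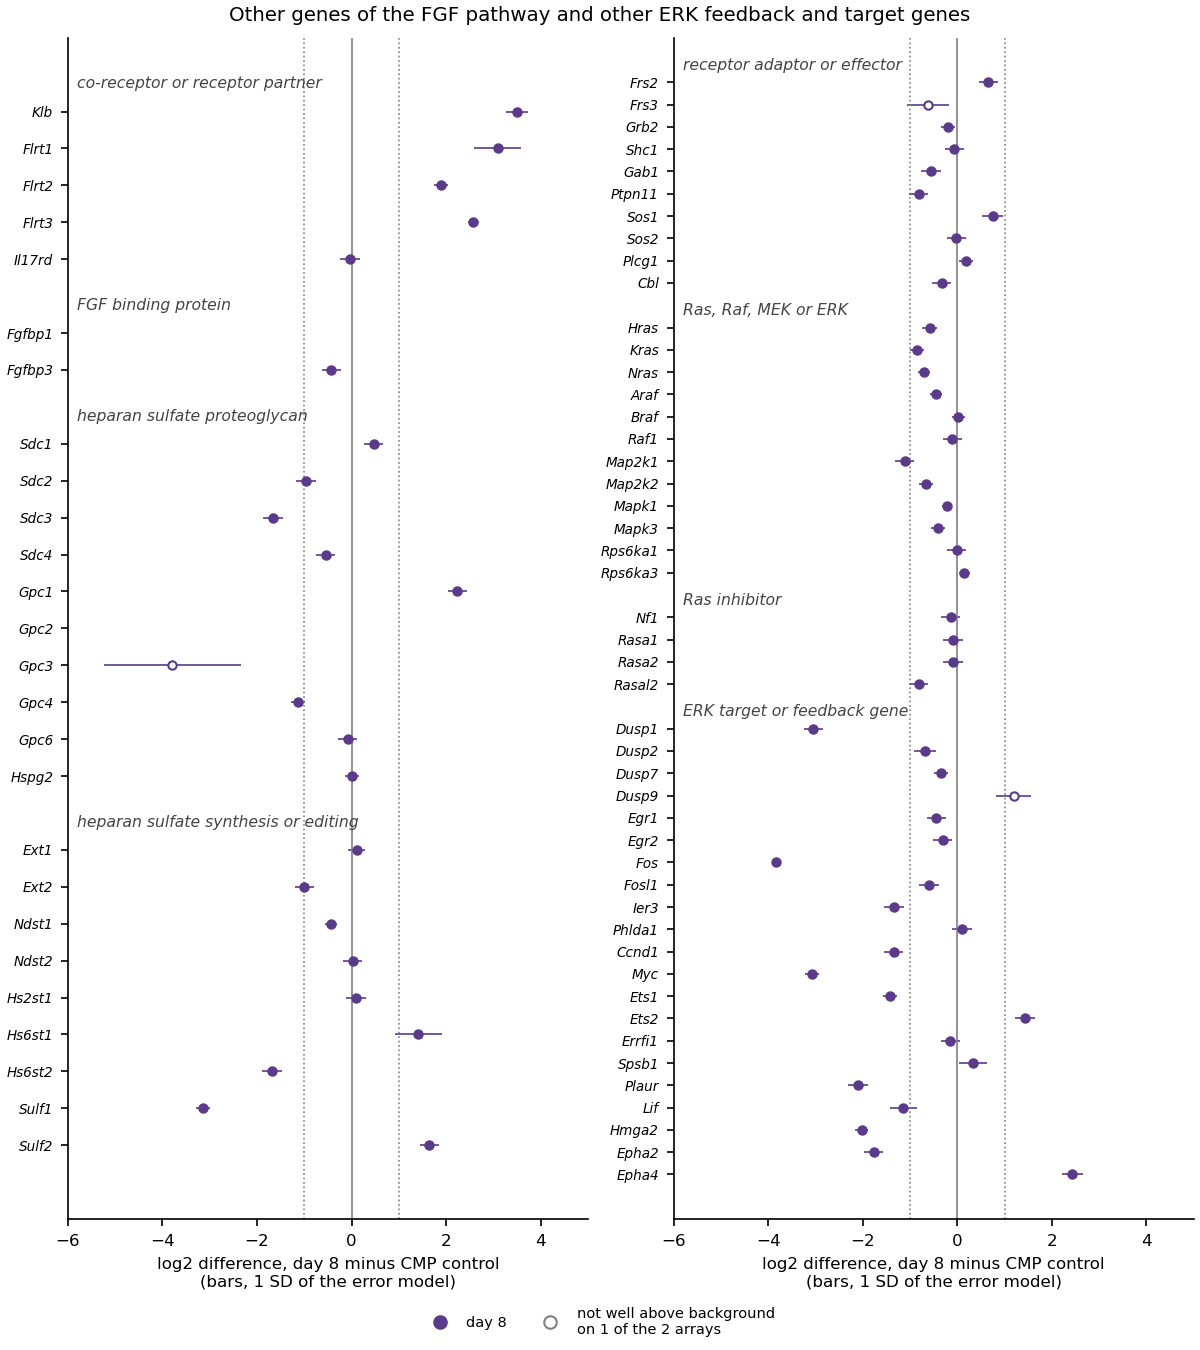
Log2 difference between day 8 and the CMP control (x axis) for the measured genes of the wider FGF pathway and the other ERK feedback and target genes, grouped by role; bars are 1 SD of the error model, dotted lines mark 2-fold, an open point has 1 array not well above background, and a gene dim on both arrays has no point. Klb at 3.50 and Flrt1 at 3.09 lie far right, Fos at -3.83 and Sulf1 at -3.15 far left, and the adaptors lie between -0.82 and 0.75.

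The probes that carry these values lie, in the mm9 coordinates of the array files, at chr3:37543403-37543462 for Spry1, chr8:35882045-35882104 for Dusp4, chr10:98729985-98730044 for Dusp6, chr11:101631057-101631116 and chr11:101631322-101631381 for Etv4, chr16:22381387-22381446 for Etv5, chr2:125916134-125916193 for Fgf7 and chr13:119580365-119580424 for Fgf10. Positions within transcripts were not worked out here. Across the 40 genes 18 had more than 1 probe, and for 10 of these some probes were dim on all arrays, so that the level of Fgf1, Fgf2, Fgf6, Fgf8, Fgf13, Fgf14, Fgf20, Fgf22 and Fgf23 rests on 1 of their probes. For Fgf6, Fgf13 and Fgf22 that probe is the one without a RefSeq match.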

How the data were processed

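Total RNA of each condition was labelled with Cy3 and hybridized to 1 Agilent array. The deposited files hold, per spot, the processed intensity with its error and flags, written by Feature Extraction 10.7.3.1 by the file headers (9.5.3 in the submitters' processing notes). The authors' normalized table holds log2 values from GeneSpring, equal to the log2 processed signal shifted by a constant per array. Control and outlier spots were left out, the log2 intensity was averaged per probe, and each array was set to 0 at its 75th percentile. The 35544 probes flagged as well above background somewhere in the series were used, and those of a gene were averaged. Probes were named through RefSeq, and those of the FGF genes by the gene name in the files. With 1 array per condition, calls rest on size (2-fold) and precision is limited by the number of arrays. On simulated arrays, 143 of 150 genes changed by at least 2.5-fold were called. The simulated noise was set to the spread between repeated spots, with no spread between cultures. That count therefore checks the computation and says nothing on the reliability of a call from 1 array. The alternatives were normexp (offset 50) followed by quantile normalization, the latter without normexp, scaling to the median of each array, the authors' values, the brightest probe per gene, other filters on dim probes, other folds and no bound. Full values are given for every gene that reached 2-fold and for Fgfr1, Fgf2, Spry2, Dusp6 and Etv5. From the 2 further lists, up to 5 genes in each direction with the largest change at day 8 are named, if well above background in the control and at day 8 and changed one way on all days, plus Klb, Kl, Frs2 and Il17rd. Other genes named from those lists were chosen after their values were seen. Genes and lists were chosen with earlier results of these data known. Python 3.11.15, numpy 2.4.6, pandas 2.3.3, matplotlib 3.10.9, R 4.3.3 and limma 3.58.1 were used.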

Additional observations from a re-analysis of the deposited data

How the results depend on the processing

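No paired analysis was possible because there was 1 array per condition. No called direction reversed under the alternatives tried. Of the alternative values of counts and medians, 173 stayed within 1.5 times the count or within the technical SD of the median and 30 did not. Of 94 single-gene differences, 94 moved by more than the technical SD with the array median, 80 with normexp and quantile, 60 with quantile alone, 15 with the brightest probe and 0 with the authors' values. The authors' values and the median scaling differ from the main values only by a constant per array. All genes therefore shift alike under them, and the authors' values are no separate check here or in the counts and medians. With normexp and quantile normalization, the genes higher than the control numbered 1, 1 and 1 at days 4, 6 and 8, from day 4 to day 6 1 rose, from day 6 to day 8 0 rose, from day 4 to day 8 0 fell, and the median at day 6 was -0.38. Scaling to the array median shifted the median of all genes to -0.16, -0.18 and -0.30, gave medians of the FGF genes of -0.47, -0.77 and -0.38, and left 2 genes higher at day 8. Requiring signal above background on every array left 1, 1 and 2 higher genes and a median at day 8 of -0.29, the brightest probe gave -0.30 there, and no filter on dim probes gave -0.50 at day 6. A 1.5-fold limit gave 4 higher at day 4 and 5 higher and 16 lower at day 6, 11 of them feedback genes, and a 3-fold limit gave 6 lower at day 6 and 1 higher at day 8. For the wider pathway list, applied after seeing the data, normexp with quantile gave 4 higher at day 4 and 3, 3 and 3 lower, and the array median 11, 12 and 11 lower. The causes were not tested. The median of the feedback genes, also added later, lay between -1.82 and -1.35 at day 4, -1.65 and -1.20 at day 6 and -2.06 and -1.39 at day 8. Changes of dim genes such as Fgf4, Fgf20, Fgf15, Dusp5 and Spred3 are limited by their signal over background, and no value has a biological replicate.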
